A study of Mus musculus with 25 samples.

Results

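The muscle sodium and chloride channel genes are Scn4a, Scn4b, Scn2b and Clcn1. They were chosen by name, and the peaks of Spin1 and of trimethylated lysine 4 of histone H3 (H3K4me3) were read at each of them. The 4 genes stand among 26182 mouse genes with a curated RefSeq transcript, of which 21000 are protein-coding. The study asked what the chromatin reader Spin1 does in developing skeletal muscle (SkM). Spin1 and H3K4me3 were mapped by ChIP-seq, which sequences the DNA that an antibody brings down, in primary myoblasts (PriMBs) of C57BL/6 mice (C57BL/6 N in the methods) aged 10 days. The cells came from limb muscle by preplating and were grown to about 70% confluency, and their labels name no engineered allele or treatment. There was 1 library per antibody plus 1 input library, so no value below has a replicate, an error between samples or a test. RNA samples of the same series were not analysed here, so the values describe chromatin and not expression.

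Scn4a encodes the pore-forming alpha subunit of the voltage-gated sodium channel Nav1.4, which carries the upstroke of the action potential along the SkM fiber. Scn4b and Scn2b encode beta subunits, small membrane proteins that attach to an alpha subunit by a disulfide bond and adjust its gating and its place in the membrane. Clcn1 encodes ClC-1, the chloride channel that sets most of the resting membrane conductance of the fiber, and its loss causes myotonia. H3K4me3 marks promoters that are active or poised, and Spin1 binds this modification through its Tudor-like domains.

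Spin1 had no peak at any of the 4 promoters, and H3K4me3 had a peak at 1 of them, that of Scn4b. A promoter was taken as the transcription start site (TSS) of each curated transcript ±1 kb, and an overlap of 1 bp counted. Over all protein-coding genes, 56.7% carried Spin1 at the promoter, 68.0% carried H3K4me3, 11.3% carried H3K4me3 without Spin1 and 32.0% carried neither. Scn4b fell into the class with H3K4me3 alone, and Scn4a, Scn2b and Clcn1 into the class with neither. From the first to the last base of their curated transcripts, none of the 4 genes had a Spin1 peak and only Scn4b had H3K4me3, where 58.4% and 70.8% of protein-coding genes had a peak of Spin1 and of H3K4me3. A missing row means that no region passed the authors' limit in that library, not that the protein or the mark was absent.

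The bases in front of the 4 genes show the difference in CpG content that runs through the results. Each line gives 200 bases of GRCm38 (mm10) on the strand of the gene, with every CpG in capitals. It ends just before the outermost protein-coding start of curated RefSeq or GENCODE transcripts, with predicted RefSeq starts left out.
Scn4a, chr11:106349391-106349590, minus strand: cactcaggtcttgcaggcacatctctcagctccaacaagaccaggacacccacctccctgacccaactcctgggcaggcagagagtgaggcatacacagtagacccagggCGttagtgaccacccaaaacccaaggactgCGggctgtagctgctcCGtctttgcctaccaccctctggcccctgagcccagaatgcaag
Scn4b, chr9:45138195-45138394, plus strand: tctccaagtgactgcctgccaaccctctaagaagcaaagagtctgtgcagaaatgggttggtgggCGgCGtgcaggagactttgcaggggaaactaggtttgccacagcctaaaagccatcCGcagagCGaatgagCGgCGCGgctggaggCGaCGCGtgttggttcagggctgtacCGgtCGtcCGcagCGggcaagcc
Scn2b, chr9:45117582-45117781, plus strand: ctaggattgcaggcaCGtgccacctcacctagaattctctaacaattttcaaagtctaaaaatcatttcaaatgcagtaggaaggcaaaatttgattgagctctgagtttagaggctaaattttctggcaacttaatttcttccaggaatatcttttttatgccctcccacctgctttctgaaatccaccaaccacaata
Clcn1, chr6:42286485-42286684, plus strand: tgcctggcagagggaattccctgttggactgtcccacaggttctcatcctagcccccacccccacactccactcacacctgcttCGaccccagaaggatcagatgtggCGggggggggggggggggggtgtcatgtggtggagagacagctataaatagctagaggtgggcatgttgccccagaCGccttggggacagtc
The Scn4b stretch held 14 CpGs. The Scn4a and Clcn1 stretches held 3 each, and the Scn2b stretch held 1.

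Scn4b lies on chr9:45138624-45154155 on the plus strand and has 5 exons. Its promoter peak of H3K4me3 spanned chr9:45137627-45139414, that is 1788 bp, from position -997 to 790 relative to the TSS. It covered 479 bp of exon 1, which is the whole exon, and 312 bp of intron 1. The score of this peak was 3100, where the peak caller's p-value against the input, as a negative log10, is multiplied by 10 to give the score. Scores pile up at this value, and 45.2% of all H3K4me3 peaks reached it or more, so it does not rank the Scn4b peak among them. In width the peak was ordinary, since 52.7% of H3K4me3 peaks were narrower.

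A separate H3K4me3 peak lay inside Scn4b, on chr9:45145478-45146725, with a width of 1248 bp and a score of 1064. It was centered 7477 bp downstream of the TSS, and 6063 bp without a peak separated it from the promoter peak. It covered 1195 bp of intron 1, which is 7570 bp long, and reached 53 bp into exon 2. No transcript start of RefSeq or GENCODE lay inside it. Its CpG observed/expected ratio, the count of CpGs over that expected from the C and G content, was 0.41, against 0.59 in the promoter peak. The middle of this peak is shown because no annotated start lies in it, with CpGs in capitals.
Scn4b intron 1, chr9:45146027-45146176, plus strand: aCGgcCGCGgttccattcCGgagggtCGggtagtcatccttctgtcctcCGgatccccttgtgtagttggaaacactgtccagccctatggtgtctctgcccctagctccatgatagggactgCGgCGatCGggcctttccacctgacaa
These 150 bases held 9 CpGs.

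No Spin1 peak lay in Scn4b or within 50 kb of either end, which held for 23.4% of protein-coding genes. The nearest Spin1 peak was 82.8 kb from the TSS, and 20.9% of protein-coding genes had theirs farther away. Absence of Spin1 was uncommon at promoters with a high H3K4me3 score. Among the 14281 protein-coding genes with H3K4me3 at the promoter, 16.7% lacked Spin1, and among the 12811 with a score of at least 3100 the share was 8.30% (95% Wilson interval 7.83 to 8.79%, counting error only). The share was higher where the H3K4me3 peak was close in width to that of Scn4b. Of 622 genes with this score and a width within 10% of 1788 bp, 43.7% lacked Spin1 (39.9 to 47.7%). Of the 122 that also had a CpG ratio within 0.05 of Scn4b, 45.1% lacked it (36.5 to 53.9%). This comparison by width was made after the Scn4b peak had been seen.

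Scn2b is the neighbor of Scn4b on the same strand, on chr9:45117876-45130070, with 4 exons. Its end and the start of Scn4b are 8553 bp apart, and their TSSs are 20748 bp apart. Neither promoter nor body of Scn2b had a peak of either kind. The only peaks within 50 kb were the H3K4me3 peaks of Scn4b, at 19.8 kb and beyond, and no Spin1 peak lay in this range. The nearest Spin1 peak was 62.0 kb from the Scn2b TSS, toward the promoter of Mpzl3, an adhesion protein gene with a Spin1 score of 703 and an H3K4me3 score of 3100. The lncRNA gene Gm10684, which overlaps Scn2b on the other strand, had no promoter peak. The 2 beta subunit genes therefore shared one stretch without Spin1 but differed in H3K4me3.

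Scn4a lies on chr11:106318593-106349390 on the minus strand and has 24 exons. Its curated TSS at position 106349390 had no peak within 1 kb, and its body had none. The nearest H3K4me3 peak lay upstream, on chr11:106364821-106366068, with a width of 1248 bp and a score of 847. Its center was at -16054 bp from the curated TSS, its CpG ratio was 0.31, and no Spin1 peak overlapped it. The start of a predicted Scn4a transcript, 16169 bp upstream of the curated TSS, lay inside this peak. The GENCODE start of Prr29, on the opposite strand, also lay inside it. A predicted start of LOC108167929 lay inside it or within 1 kb of it, so the peak cannot be given to one of these genes. A further predicted Scn4a start, 5752 bp upstream, had no peak. With predicted transcripts included, H3K4me3 would count at 2 of the 4 genes, Scn4a and Scn4b, and Spin1 still at 0.

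On the far side of Scn4a, the only Spin1 peak within 50 kb of the gene lay at the promoter of Smarcd2, a subunit gene of the SWI/SNF chromatin remodelers, with a width of 2860 bp and a score of 3100. It started 75.5 kb from the Scn4a TSS. An H3K4me3 peak of 3447 bp with a score of 3100 overlapped it, and a weaker one of 1636 bp with a score of 448 lay beside it. The Spin1 peak and the wider H3K4me3 peak also touched the ±1 kb window of a predicted Tcam1 start. Between these peaks and Scn4a stand Tcam1, Gh (growth hormone) and Cd79b (a B cell receptor subunit). None of them had a peak at a curated promoter. Upstream, the curated promoters of Prr29 and Icam2 (an endothelial and leukocyte adhesion molecule) had none either, whereas Ern1 (an endoplasmic reticulum stress sensor), whose far end reaches into the window, had both with scores of 3100 at its own start outside it.

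Clcn1 lies on chr6:42286685-42315764 on the plus strand. It has 2 curated transcripts that start at the same base, and the selected one has 23 exons. No peak of either kind touched its promoter or its body, nor did one touch the starts of its 2 predicted transcripts. It had the most peaks around it of the 4 genes, with 4 Spin1 and 5 H3K4me3 peaks within 50 kb. In that count it had more Spin1 peaks than 74.1% of protein-coding genes, whose median was 2 for Spin1 and 3 for H3K4me3. The corresponding counts were 1 and 3 for Scn4a, 0 and 2 for Scn4b and 0 and 2 for Scn2b. All 4 genes had at least 1 H3K4me3 peak in this range, which 15.1% of protein-coding genes lacked.

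Most peaks around Clcn1 lay at the promoters of other genes, and the rest lay inside such genes. Casp2, a caspase gene upstream, had a Spin1 score of 2915 and an H3K4me3 score of 3100, and its peaks ended 19.9 kb and 18.9 kb before the Clcn1 TSS. Fam131b, whose 3′ end overlaps that of Clcn1 by 460 bp on the opposite strand, had a Spin1 score of 983 and an H3K4me3 score of 3100 at its own start. Zyx, the gene of the focal adhesion protein zyxin, carried a Spin1 peak of 7054 bp and an H3K4me3 peak of 10396 bp, both with scores of 3100. A smaller Spin1 peak with a score of 156 lay inside Zyx, under the same H3K4me3 peak. Gstk1, a glutathione transferase gene, had H3K4me3 alone with a score of 1095, and a peak with a score of 74.9 followed within the gene.

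**Figure D1:**
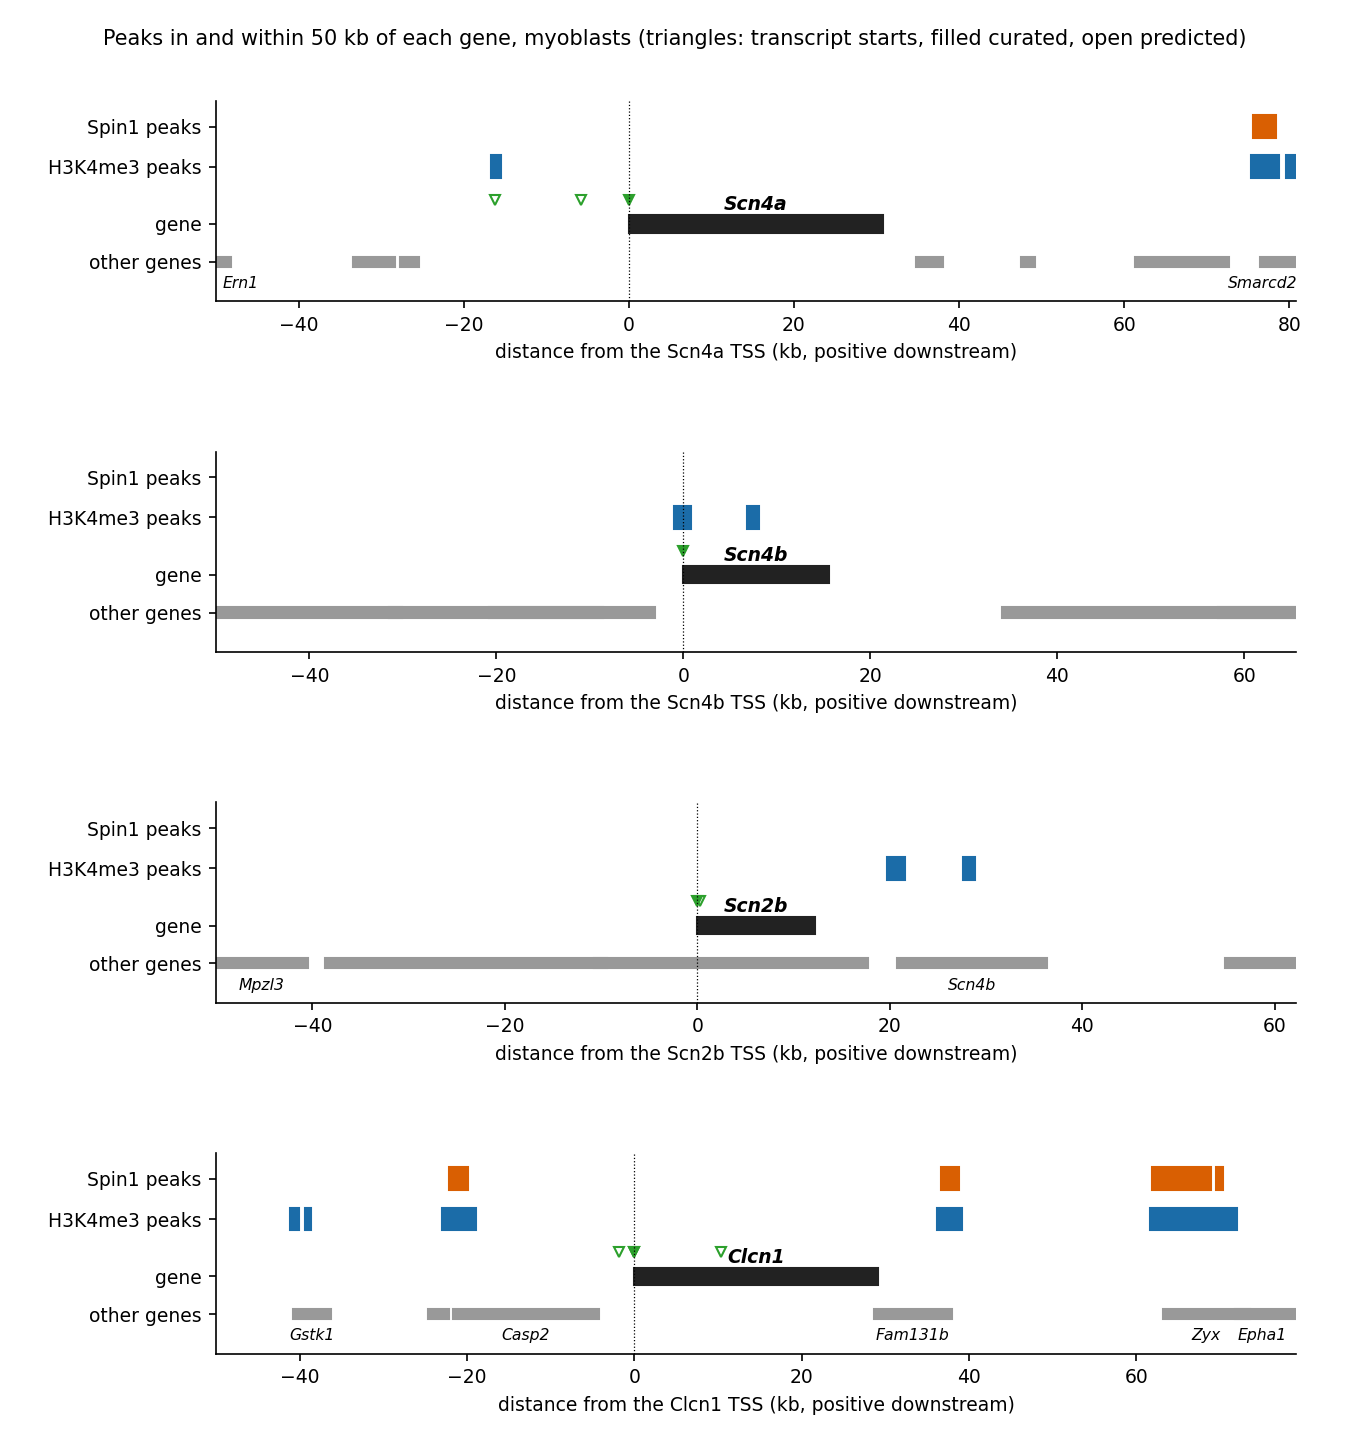
Peak intervals of Spin1 (orange) and H3K4me3 (blue) in and within 50 kb of each gene, by distance in kb from its curated TSS along its own strand, with the gene in black, other genes in grey and only those with a promoter peak named, and triangles for curated (filled) and predicted (open) transcript starts. Blue bars touch the gene only at Scn4b, an open triangle of Scn4a lies under the blue bar at -16.1 kb, and Clcn1 lies between peaks of other genes.

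Over the 18 other genes that overlap these 4 windows, 7 promoters carried both peaks, 1 carried H3K4me3 alone and 10 carried neither. Their CpG ratio within 0.5 kb of the TSS followed the same split, with a median of 0.76 (range 0.52 to 0.91) where both were present and of 0.20 (0.14 to 0.61) where neither was.

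**Figure D2:**
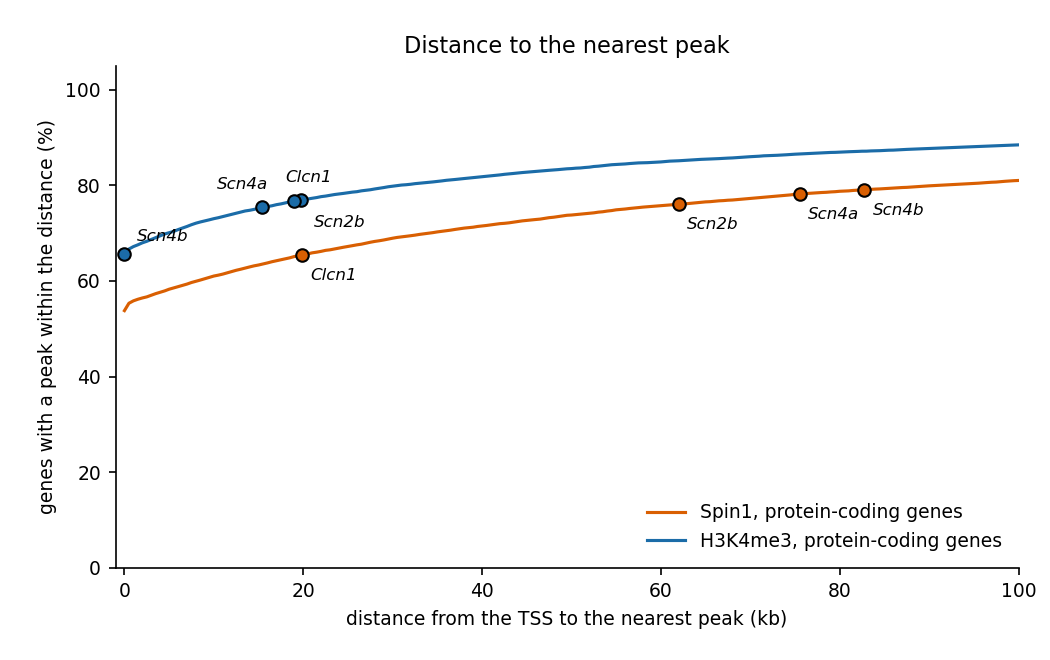
Share of protein-coding genes (vertical axis, %) with a peak within a given distance of a TSS (horizontal axis, kb), for Spin1 in orange and H3K4me3 in blue, with the 4 genes as points at their own distance. For H3K4me3 the points lie at 0 to 19.8 kb, and for Spin1 at 19.9 to 82.8 kb, so that Clcn1 is the gene nearest to a Spin1 peak and Scn4b the farthest from one.

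CpG content set the promoter of Scn4b apart from the other 3. Within 0.5 kb of the TSS its CpG ratio was 0.76 with 84 CpGs and a GC content of 66.7%. The ratio was 0.27 at Scn4a with 22 CpGs, 0.23 at Scn2b with 13 and 0.18 at Clcn1 with 12, against a median of 0.60 and 47 CpGs over protein-coding genes. Scn4a was nonetheless GC-rich, at 57.9% against a median of 56.0%. Each gene was then set beside the protein-coding genes with a CpG ratio within 0.05 of its own.

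For the 3 CpG-poor genes, a promoter without either peak was the usual state at their CpG content. H3K4me3 was present at 26.1% of 1808 promoters like that of Scn4a, 19.2% of 2148 like that of Scn2b and 12.2% of 2700 like that of Clcn1. Spin1 was present at 13.2%, 9.54% and 6.56% of the same promoters. Scn4b had H3K4me3 like 99.3% of the 3210 promoters of its CpG content, but lacked Spin1 where 90.8% of them had it (95% Wilson interval 89.7 to 91.7%). Among the 122 of like CpG ratio that also matched its H3K4me3 score and width, 45.1% lacked Spin1. Genes with H3K4me3 alone mostly had a lower CpG ratio than Scn4b. Over all 2378 of them the median ratio was 0.53, and 86.2% had a lower ratio than Scn4b.

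**Figure D3:**
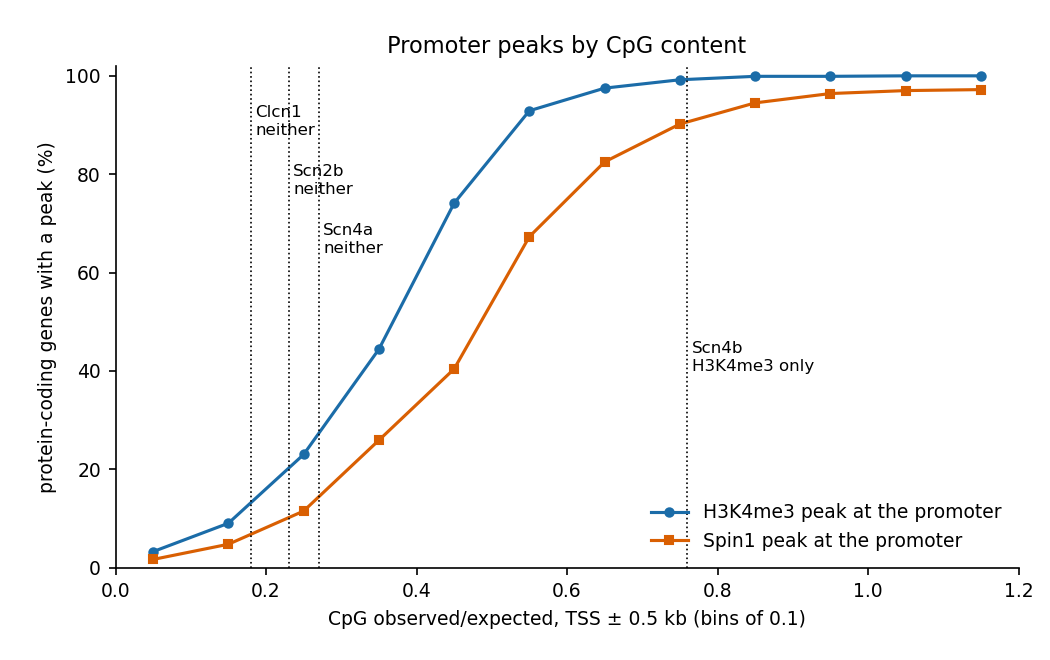
Share of protein-coding genes with a promoter peak (vertical axis, %) of H3K4me3 (blue) and Spin1 (orange) by CpG observed/expected ratio within 0.5 kb of the TSS (horizontal axis, bins of 0.1), with dotted lines at the 4 genes. Clcn1, Scn2b and Scn4a stand at 0.18, 0.23 and 0.27, where both curves are low, and Scn4b stands at 0.76, where both are high although it had H3K4me3 only.

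The promoters were also searched for short motifs in the 250 bases before the RefSeq TSS, on both strands. CANNTG, the E-box that MyoD and other bHLH factors bind, occurred 2 times at Scn2b and 3 times at Clcn1 and did not occur in this window at Scn4a or Scn4b. It is common, at 62.4% of the 16853 protein-coding promoters in the RefSeq sequence table that matched by symbol. The sites at Scn2b start 226 and 126 bases before the TSS, and both lie in the stretch printed above, the second reading CACCTG. Those at Clcn1 start 125, 101 and 69 bases before the TSS, the first again with the letters of the second Scn2b site. CAGCTG, a form of the E-box found at 11.8% of promoters, was at none of the 4, and GGGCGG, the core of Sp1 sites, found at 44.0%, was in none of these windows either. The printed stretches of Scn4b and Scn2b begin 429 and 294 bases before the RefSeq TSS and so reach beyond the window searched. There the Scn4b stretch held 1 GGGCGG and 1 CANNTG, and the Scn2b stretch held 1 more CANNTG.

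Clcn1 alone held TATAAA, 50 bases before its TSS, a motif of 12.3% of promoters. The letters overlap CTATAAATAG, which starts 51 bases before the TSS and matches the MEF2 motif, bound by a family of muscle transcription factors. That motif occurred at 0.487% of promoters, but it was searched only after the Clcn1 sequence had been seen. In this window of 250 bases Scn4b held 23 CpGs, more than 82.9% of protein-coding promoters, against 4 at Scn4a, 3 at Clcn1 and 1 at Scn2b and a median of 10. These letters are a description of the sequence and not evidence of binding.

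Within the 10 genes of sodium channel alpha subunits, Scn4a was 1 of 5 without a promoter peak, together with Scn1a, Scn3a, Scn10a and Scn11a. That state held for 32.0% of all protein-coding genes. Scn8a, a channel of nerve cells, had both peaks with a Spin1 score of 208 and an H3K4me3 score of 3100, and this Spin1 score was below the median of 1239 over all Spin1 peaks. Scn2a, Scn7a and Scn9a had H3K4me3 alone, with scores of 2782, 168 and 399.

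Among the beta subunit genes, Scn3b shared the state of Scn4b, with H3K4me3 alone at a score of 3100 and a CpG ratio of 0.46.

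Among 11 genes of CLC chloride channels, exchangers and their accessory subunits, Clcn1 was 1 of 4 with neither peak, as was the accessory subunit gene Bsnd. The share with neither was 32.0% over all protein-coding genes. Clcn2 to Clcn7 and Ostm1 (a partner of the lysosomal exchanger) had both peaks at the promoter, with Spin1 scores from 1182 at Clcn3 to 3226 at Clcn4 and CpG ratios from 0.57 to 0.96. None of the CLC genes had H3K4me3 alone.

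In 4 further lists, chosen by hand, H3K4me3 was at every promoter, where 68.0% of all protein-coding genes had it. The median CpG ratios of these lists ran from 0.58 to 0.82, and H3K4me3 was at 92.9% of promoters with a ratio of 0.5 to 0.6 and at 99.9% of those at 0.8 to 0.9, so nothing particular to the lists follows. Of 11 potassium channel genes of SkM, 5 had both peaks and 6 had H3K4me3 alone, and of 5 sodium pump genes 3 had both and 2 had H3K4me3 alone. The 7 splicing regulators, among them Mbnl1 and Celf1, which act on Clcn1 transcripts, and the 5 genes of channel anchors and turnover, among them Ank3 and Nedd4l, had both. Over these lists and the channel families, with the 4 genes left out, 30 of 49 promoters had both peaks, 12 had H3K4me3 alone and 7 had neither. Of all protein-coding genes, 56.7% had Spin1, 11.3% had H3K4me3 alone and 32.0% had neither. No listed promoter had Spin1 alone.

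By the state of promoter and body together, Scn4a, Scn2b and Clcn1 were most like Bsnd and Scn11a, 2 of those 49 genes. Scn4b was most like 12 of the 49, which were Scn2a, Scn3b, Scn7a, Scn9a, the potassium channel genes Kcna4, Kcna7, Kcnc4, Kcne3, Kcnj11 and Abcc9, and the pump genes Atp1b2 and Fxyd1. Among these 12, the H3K4me3 score was 3100 at Kcna4, Kcna7, Kcnc4, Kcne3, Atp1b2 and Scn3b and ranged from 158 to 2782 at the other 6. The CpG ratio was lower than that of Scn4b in each, from 0.20 at Scn7a to 0.72 at Kcnc4. The body state did not narrow this set, since all 12 genes with the promoter state of Scn4b also shared its body state. Scn4b had 2 H3K4me3 peaks in its body, where each of the 12 had 1.

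**Figure D4:**
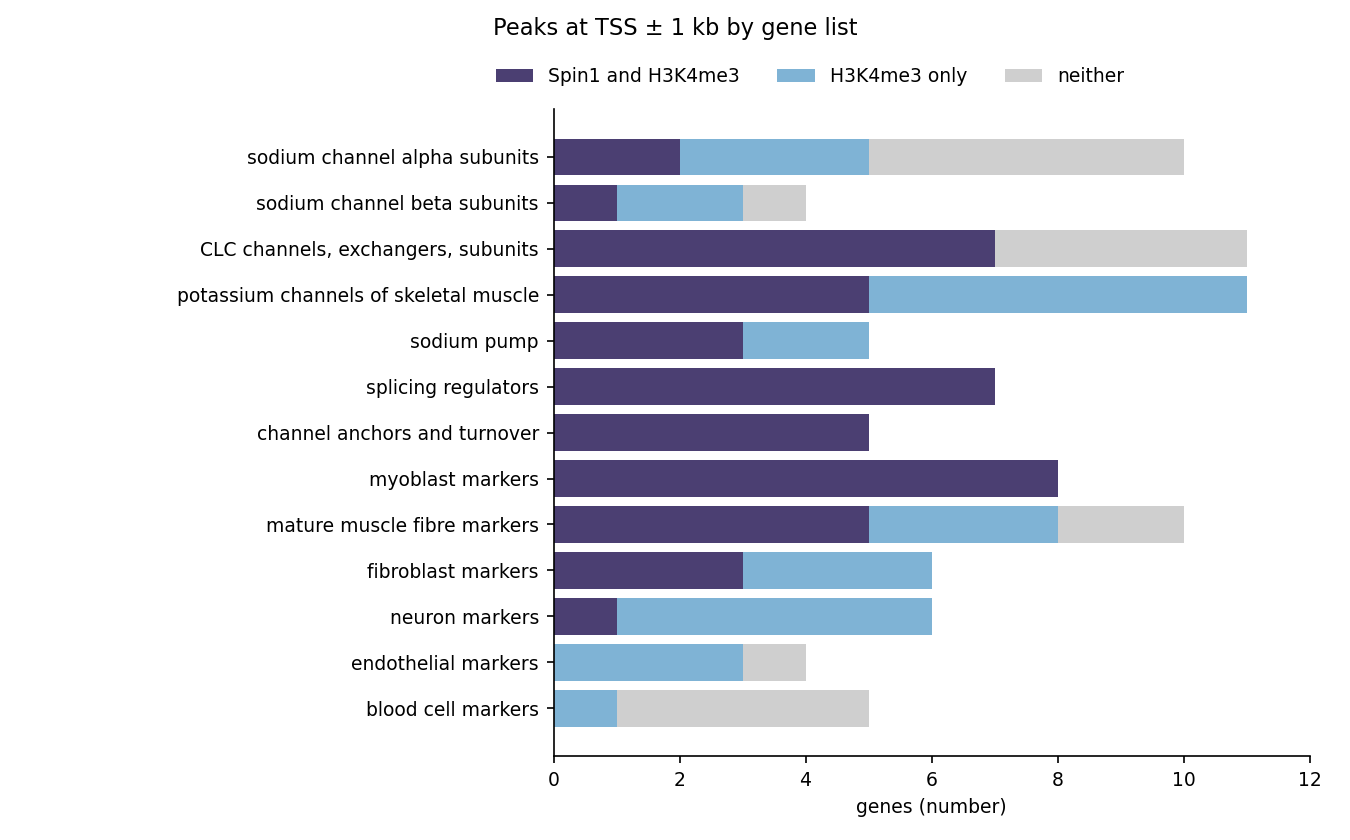
Number of genes (horizontal axis) with Spin1 and H3K4me3 (dark), H3K4me3 only (blue) or neither (grey) within 1 kb of a TSS, for each gene list. The alpha subunits, the beta subunits and the CLC genes, which hold the 4 genes, include 5, 1 and 4 promoters with neither peak. With the 4 genes left out, these counts are 4 of 9, 0 of 2 and 3 of 10. The potassium channel, pump, splicing and anchor lists include none, where 32.0% of protein-coding genes have neither. Median CpG ratios are 0.37, 0.61 and 0.68 in the former lists and 0.58 to 0.82 in the latter.

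Marker genes of several cell types were read by the same rule. Over all protein-coding genes, 68.0% had H3K4me3 at the promoter and 56.7% had Spin1. All 8 myoblast markers, among them Pax7, Myf5 and Myod1, had both peaks. Of 10 markers of the mature fiber, 5 had both, 3 had H3K4me3 alone and Myh2 and Myh4 had neither, the state of Scn4a and Clcn1. Fibroblast markers had H3K4me3 at 6 of 6 promoters with Spin1 at 3, and neuron markers had it at 6 of 6 with Spin1 at 1. Endothelial markers had H3K4me3 at 3 of 4 and blood cell markers at 1 of 5, where Cd68 scored 51.8, with no Spin1 at any of these 9 promoters. By these lists H3K4me3 did not tell myoblasts from fibroblasts or neurons, since every promoter of the 3 lists had it. Whether other cells in the culture contributed to the H3K4me3 peaks of Scn4b was not tested.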

How the data were processed

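ChIP-seq of Spin1 and H3K4me3 in PriMBs gave 1 library each, with input as control. Reads were mapped by the authors to mm10 with bowtie 2, and peaks were called with MACS 1.4.2, and regions over 1% false discovery rate were dropped. For the score, the authors multiplied the p-value of MACS, as a negative log10, by 10, and deposited it. The lists held 17106 Spin1 and 30763 H3K4me3 peaks, with scores from 50.7 and 50.0. Read depth is unknown, and a score grows with depth and enrichment, so scores of the 2 antibodies were not compared. Per the methods, less H3K4me3 than Spin1 antibody was used, but on a much smaller part of the chromatin. The title names the mark as H3K4me3 where the antibody label omits the degree of methylation.

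Coordinates count from 1 on GRCm38, the assembly of mm10, with RefSeq annotation release 108.20200622 and GENCODE M21. Peaks within 50 kb of each gene were listed. Shares carry 95% Wilson intervals for counting error. Overlap functions were tested on simulated data. Python 3.11.15, pandas 2.3.3, pysam 0.24.0 and samtools 1.23.1 were used. The alternatives were other promoter windows, score limits, transcript sets, flanks and CpG windows.

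Named were the 4 genes, genes within 50 kb, and listed genes in the same state. The genes and lists were chosen with earlier results of these data known. A planned comparison of the proteins was not made, and some listed genes are not reported here by name.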

Additional observations from a re-analysis of the deposited data

How the results depend on the processing

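Spin1 stayed at 0 of the 4 promoters under the 8 other promoter definitions, and Scn4b kept its H3K4me3 peak under all 8. With predicted transcripts included, H3K4me3 counted at 2 promoters, those of Scn4a and Scn4b, and with the gene record that holds them (chosen after seeing the data) the Scn4a body had 1 H3K4me3 peak in place of 0.

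The share of protein-coding genes with Spin1 at the promoter was 55.8% from 1 kb upstream to 0.1 kb downstream, 42.9% with the 50% of peaks of highest score, 52.7% with peak centers, 55.8% with selected transcripts, 57.6% with predicted ones and 50.7% over all genes. The share with H3K4me3 was 68.7% within 2 kb, 67.3% at scores of at least 100, 63.0% with the 50% of peaks of highest score, 56.3% with peak centers, 67.2% with selected transcripts, 69.0% with predicted ones and 61.9% over all genes. H3K4me3 without Spin1 was 10.7% at scores of at least 100 and 20.1% with the 50% of peaks of highest score.

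A flank of 25 kb left 0 Spin1 and 1 H3K4me3 peaks at Scn4a and 2 and 2 at Clcn1. A flank of 100 kb gave 3 and 5 at Scn4a, 1 and 4 at Scn4b and 1 and 4 at Scn2b. With the 50% of peaks of highest score, H3K4me3 counts were 1 at Scn4a, Scn4b and Scn2b and 3 at Clcn1, with 2 Spin1 peaks there. In sequence of TSS±1 kb the CpG ratio of Scn4b was 0.57, and the share of like promoters with H3K4me3 was 28.4% for Scn4a, 98.3% for Scn4b, 32.1% for Scn2b and 9.17% for Clcn1. The share of like promoters with Spin1 was not recomputed in that window. Of 107 alternative values, 70 did not move beyond set limits. These limits were the counting error for shares, 1.5 times for counts and 0.05 for CpG ratios. Some of the 70 values, such as most of the Spin1 promoter counts, could not move. No paired analysis was possible because each antibody had 1 library. Without replicates or read counts, a missing peak cannot be told from a signal under the calling limit.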
